A study of Mus musculus with 18 samples.

Results

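The respiratory chain genes described here were the genes of the array whose single platform symbol begins with Nduf followed by a, b, c, s or v, with Uqcr, with Atp5 or with Cox4 to Cox8, together with Sdha, Sdhb, Sdhc and Sdhd. The symbols alone chose them, and no measured value did. In all, 90 genes met the rule, among 18193 genes with a probe set of a single symbol. Of these, 87 were bright enough to be tested, among 12870 genes tested. Ndufaf6, Cox7b2 and Cox8b were not. The 87 comprised 6 core subunits, 28 accessory subunits and 7 assembly factors of complex I, 4 subunits of complex II, 8 of complex III, 17 of complex IV and 17 of complex V. Transcripts encoded by mitochondrial DNA were not analysed here, and neither was Cox7b.

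The study looked for transcripts that follow the time of day in the distal colon of mice. Total RNA of colon resected just above the anus was measured on 3 Affymetrix arrays (a, b and c) at each of 6 clock times. These were 8am (1 h after lights on), 12pm (5 h), 4pm (9 h), 8pm (13 h), 12am (17 h) and 4am (21 h). The mice had lived for 2 weeks in 12 h of light and 12 h of dark and ate freely. Strain, age, sex and genotype are not given in the sources used here, no group received a treatment, and whether each array stands for its own mouse or for pooled RNA is not stated. The p-values therefore cover only the spread between the 3 arrays of a time, which may be technical.

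As background, the respiratory chain sits in the inner mitochondrial membrane. Complexes I and II feed electrons from NADH and succinate to ubiquinone, complex III passes them on to cytochrome c, and complex IV hands them to oxygen. Complexes I, III and IV pump protons, and complex V, the ATP synthase, uses their return to make ATP. Colon epithelial cells rely on this chain to burn butyrate, the short-chain fatty acid that gut bacteria supply.

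The respiratory chain transcripts were well expressed, and the median member varied less between times than the median gene. Values are log2(signal + 16), and the mean level of a member over the 18 arrays ran between 7.25 and 14.24, with a median of 12.54 and a filter limit of 7.10. The standard deviation (SD) within a collection time, taken as the median over the 6 times, had a median of 0.21 over the members and 0.26 over all genes tested. The highest and lowest of the 6 time means lay 0.57 apart in the median member, against 0.90 in the median of all genes. This distance ran between 0.21 and 2.32 over the members. At 8am and 4am the median SD was higher in the members, 0.23 and 0.54, than in all genes, 0.20 and 0.52. At the other times it was lower in the members. The median level of all genes was 9.18, and the part of the level in these spreads was not tested.

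The quality of the arrays differed. The Gapdh control's signal at its 3′ end over that at its 5′ end, here called the Gapdh ratio, which goes up as RNA breaks or is copied incompletely, was 34.3 in 4pm b, 36.0 in 4am a, 18.2 in 4am b and 2.33 in 4pm c, and between 0.746 and 1.12 in the other 14 arrays. The median SD of the members was 0.54 at 4am, where 2 of these arrays lie, and between 0.15 and 0.23 at the other 5 times. The 8 epithelial markers Epcam, Cdh1, Vil1, Krt8, Krt18, Krt20, Car1 and Slc26a3 all passed the filter.

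**Figure D1:**
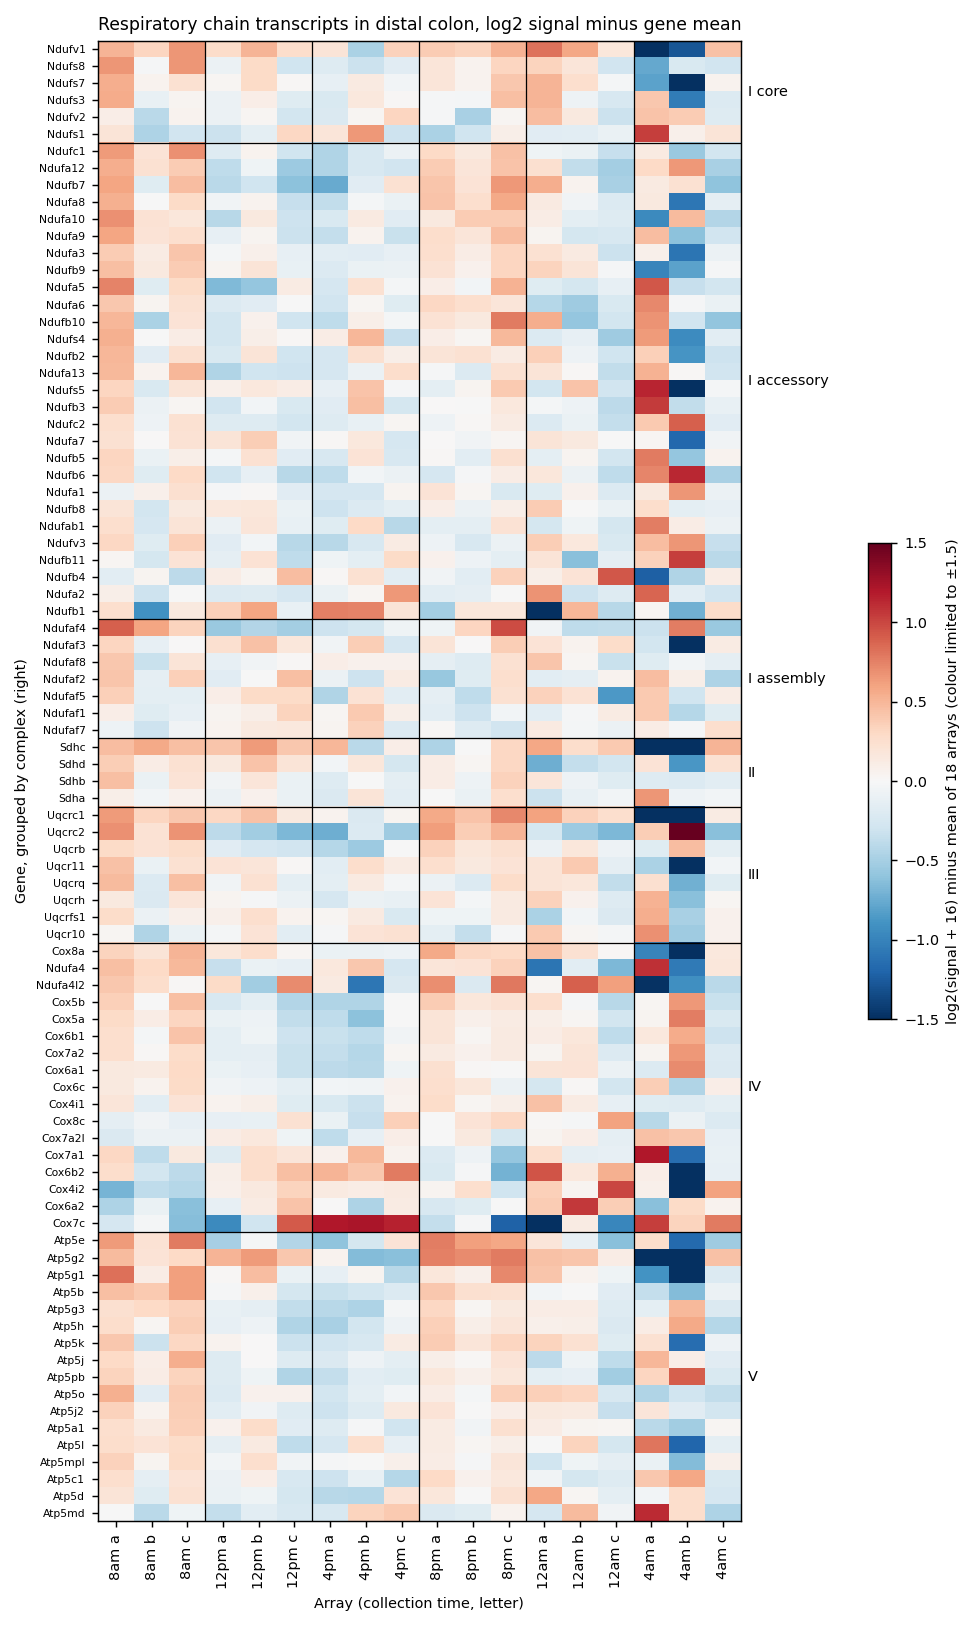
Colour gives log2(signal + 16) minus the gene's mean over the 18 arrays, with genes as lines ordered by complex and arrays as columns ordered by collection time. Most members keep the same pale shade throughout, most of the 8am and 8pm columns are warmer, and the 4am a and 4am b columns hold the strongest colours in both directions.

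Below are the stretches of 250 bases that end just before the transcription start of 4 genes, shown because their higher signal at 8am and 8pm, described further on, kept its call in 32 of 32 alternative settings (Atp5e, Ndufaf4 and Ndufc1) or in 31 of 32 (Atp5b). They are from RefSeq on GRCm38.p6, 5′ to 3′ on the gene's strand, with capitals at matches on either strand to the motifs searched. Atp5b (chr10:128083057-128083306, plus strand) encodes the catalytic beta subunit of ATP synthase, Atp5e (chr2:174464102-174464351, minus strand) its epsilon subunit, Ndufaf4 (chr4:24897833-24898082, plus strand) an assembly factor of complex I and Ndufc1 (chr3:51408956-51409205, minus strand) an accessory subunit of complex I.
Atp5b: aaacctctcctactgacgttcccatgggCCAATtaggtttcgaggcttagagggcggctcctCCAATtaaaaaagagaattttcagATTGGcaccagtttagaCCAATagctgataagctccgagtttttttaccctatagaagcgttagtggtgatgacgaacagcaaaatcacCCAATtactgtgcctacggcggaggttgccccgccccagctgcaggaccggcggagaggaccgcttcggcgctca
Atp5e: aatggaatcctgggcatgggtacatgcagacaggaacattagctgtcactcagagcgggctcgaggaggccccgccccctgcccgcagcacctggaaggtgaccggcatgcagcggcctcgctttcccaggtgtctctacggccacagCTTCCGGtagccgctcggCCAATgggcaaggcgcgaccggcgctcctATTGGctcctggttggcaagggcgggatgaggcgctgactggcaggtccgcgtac
Ndufaf4: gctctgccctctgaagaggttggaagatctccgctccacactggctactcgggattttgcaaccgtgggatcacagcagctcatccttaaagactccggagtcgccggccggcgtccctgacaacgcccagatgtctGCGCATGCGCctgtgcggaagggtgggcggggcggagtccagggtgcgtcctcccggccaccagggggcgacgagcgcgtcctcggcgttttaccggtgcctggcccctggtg
Ndufc1: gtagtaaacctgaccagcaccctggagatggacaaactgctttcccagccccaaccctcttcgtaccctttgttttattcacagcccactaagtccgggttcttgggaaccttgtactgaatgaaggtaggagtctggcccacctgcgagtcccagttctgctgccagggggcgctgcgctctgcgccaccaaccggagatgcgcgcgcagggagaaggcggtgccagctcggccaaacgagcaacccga

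The motifs were picked after the values were seen. Of the 90 members, 74 had a promoter in the table, 79 promoters in all. The NRF1 core, GCGCA followed by its reverse complement and bound by nuclear respiratory factor 1, stood in 4 of the 79 (5.06%), among them that of Ndufaf4, against 1.23% of the promoters of all array genes. The ETS core CCGGAAG, bound by factors that include the GA-binding protein (Gabpa and Gabpb1), stood in 14 (17.72%) against 10.14%, and the CCAAT box in 33 (41.77%) against 34.76%. The E-box CACGTG, to which the clock activators bind, stood in 7 (8.86%) against 7.39%, and the D-box TTATGTAA, to which Dbp and its relatives bind, in 0 against 0.61%. The cAMP response element TGACGTCA stood in 3 (3.80%) against 2.13%, and the YY1 core AAGATGGC in 1 (1.27%) against 1.70%. A match describes the letters of this window and nothing of what binds there.

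No respiratory chain transcript followed a daily rhythm that passed the test. A cosine curve of 24 h was called in 0 of 87 members by limma, where 0.0389% of all genes were called, and 0 members had an unadjusted p under 0.05 against 3.95% of all genes. The fitted amplitude, the distance from the middle of the curve to its peak on the log2 scale, had a median of 0.14 over the members, with a range of 0.01 to 0.56, and 0.19 over all genes. The highest belonged to Ndufv1, the subunit of complex I that binds NADH, with 0.56 ± 0.36 (SE), a fitted peak 9.16 h after lights on and an adjusted p of 0.9479 in limma. Its time means were 12.45 ± 0.17 at 8am, 12.30 ± 0.14 at 12pm, 11.97 ± 0.44 at 4pm, 12.36 ± 0.10 at 8pm, 12.47 ± 0.33 at 12am and 10.15 ± 2.54 at 4am (SD, n = 3 each). The 4am mean is low through 2 arrays, at 7.39 in 4am a and 10.66 in 4am b, while 4am c stood at 12.38.

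No member passed the test between light and dark with the arrays weighted alike. The mean of the 3 light times minus the mean of the 3 dark times passed the limma test in 0 of 87 members and in 0.00% of all genes, with a median log2 difference of 0.00 over the members and 0.01 over all genes. At an unadjusted p under 0.05 there was 1 member (6.21% of all genes), Sdhc, a membrane anchor of succinate dehydrogenase (complex II). It averaged 11.95 in the light and 11.25 in the dark, a log2 difference of 0.70 ± 0.32 (SE, limma adjusted p = 0.7494). The arrays 4am a and 4am b, both of high Gapdh ratio, read 8.46 and 10.01, and the other 16 arrays lay between 11.13 and 12.24.

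None passed between times 12 h apart either. 8am minus 8pm called 0 of 87 members in limma (0.00777% of all genes), with 0 members at an unadjusted p under 0.05 against 2.88% of all genes. 12pm minus 12am called 0 (0.00%), with 1 member at that p against 8.11%, and 4pm minus 4am called 0 (0.0466%), with 17 members (19.5%) against 19.7%. The member at 12pm against 12am was Sdhd, the other membrane anchor of complex II. It read 12.69, 12.97 and 12.75 at 12pm, against 11.82, 12.19 and 12.27 at 12am, a log2 difference of 0.71 ± 0.25 (SE, limma adjusted p = 0.5234). These groups did not overlap, which held in this direction for 11% of all genes. The same difference had an adjusted p of 0.0374 without the 4 arrays of high Gapdh ratio and 0.07257 without the 3 above 10. Weighting the arrays by quality called 18 of 87 members for light minus dark, against 15.1% of all genes, and 30 of 87 for 4pm minus 4am, against 25.4%. The differences between these 3 contrasts, fitted as interactions, called 0 members. Few of all 12870 genes were called either. There were 12 between the 4pm and 8am contrasts, 2 between the 4pm and 12pm contrasts and 0 between the 8am and 12pm contrasts.

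Across all 6 times, 8 of 87 members differed in the limma F test (9.20%), a smaller share than the 17% of all genes. They were Atp5b, Atp5e and the c subunit genes Atp5g1 and Atp5g2 of ATP synthase, the complex I accessory subunits Ndufb9 and Ndufc1, Uqcrc1, a core protein of complex III, and Cox7c of complex IV. Cox7c passed the filter only through its 4pm and 4am arrays, so its call is not an independent result. The lowest adjusted p was that of Atp5b at 0.0117, followed by Uqcrc1 at 0.0260, and the others lay between 0.0358 and 0.0449. In the 3 light times Atp5b read 14.09, 14.03 and 14.25 (8am), 13.62, 13.71 and 13.37 (12pm) and 13.30, 13.37 and 13.44 (4pm). In the 3 dark times it read 14.04, 13.88 and 13.86 (8pm), 13.60, 13.63 and 13.47 (12am) and 13.29, 12.99 and 13.55 (4am). Its 6 arrays of 8am and 8pm were the 6 highest. The count depended on single arrays: it was 32 without 4am c, 1 without 8am c, 2 without 8am a, 4pm a, 8pm a, 8pm c or 12am a, 3 without 12pm a, 8pm b, 12am b or 12am c, 4 without 12pm b and 5 without 12pm c or 4am a.

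The pattern that recurred among the members was a level shared by 8am and 8pm, the times 1 h after the lights changed. The comparison of these 6 arrays with the 12 of the other times was chosen with earlier results of these data known. It called 13 of 87 members in limma (14.9%), near the 16.4% of all genes, and each of the 13 was higher at 8am and 8pm, where 5.80% of all genes were called higher and 10.7% lower. Of the 87, 70 had a positive difference, and the median log2 difference was 0.24 over the members and -0.05 over all genes. With quantile normalization 7 of 87 members were called, 5 higher and 2 lower (Ndufa1 and Ndufv2), a smaller share than the 14.0% of all genes. In that setting 51 of 87 differences were positive, and the median was 0.06 over the members and -0.02 over all genes.

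**Figure D2:**
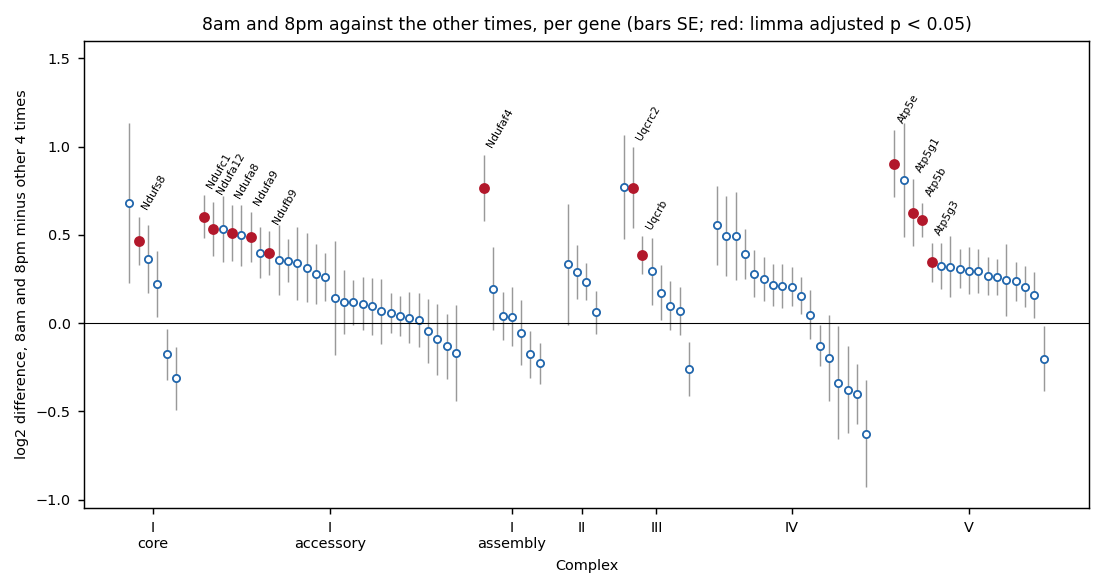
Each point is a member's log2 difference, 8am and 8pm minus the other 4 times, with its standard error, grouped by complex along the horizontal axis. Filled red points passed the limma test. The 13 called members all lie above 0, and only 1 of the 17 points of complex V lies below it.

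In complex V most members had the same direction. Of its 17 genes 16 had a positive difference, with a median of 0.30, or 0.07 after quantile normalization, and 4 passed the test. Atp5b read 13.86 at the lowest, 14.04 in the median and 14.25 at the highest of the 6 arrays of 8am and 8pm, against 12.99, 13.46 and 13.71 in the 12 others. The groups did not overlap, which held in this direction for 1.30% of all genes, and the log2 difference was 0.58 ± 0.10 (SE, 1.5-fold, limma adjusted p = 0.0008352). Atp5e read 12.48, 12.89 and 13.03 against 11.09, 11.91 and 12.52, a difference of 0.90 ± 0.19 (1.87-fold, limma adjusted p = 0.004606). Of the 12 other arrays only 4am a, at 12.52, reached into the range of 8am and 8pm. Of the 3 genes for the c subunit of the rotor ring, which encode the same mature protein behind different import sequences, Atp5g1 was higher by 0.62 ± 0.19 and Atp5g3 by 0.34 ± 0.11 (limma adjusted p = 0.0338 and 0.0454), and Atp5g2, at 0.81 ± 0.32, did not pass (0.0936). Quantile normalization left Atp5e called, at 0.77, and not Atp5b, Atp5g1 and Atp5g3, at 0.28, 0.48 and 0.02 (limma adjusted p = 0.0887, 0.0815 and 0.8293).

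In complex I, 7 genes were higher at 8am and 8pm. Ndufc1 read 12.81, 13.04 and 13.35 at the lowest, median and highest of the 8am and 8pm arrays, against 12.12, 12.45 and 12.81 elsewhere, and differed by 0.60 ± 0.12 (1.52-fold, limma adjusted p = 0.00374). The groups nearly touched, with 8pm b at 12.811 and 4am a, of high Gapdh ratio, at 12.807. The assembly factor Ndufaf4 read 10.23, 10.76 and 11.27 against 9.73, 9.95 and 11.06, a difference of 0.77 ± 0.19 (1.70-fold, limma adjusted p = 0.0116). Outside 8am and 8pm only 4am b lay above 10.24. Other members called were Ndufs8, a core subunit that holds iron-sulfur clusters (0.47 ± 0.14), and the accessory subunits Ndufa12 (0.54 ± 0.15), Ndufa8 (0.51 ± 0.16), Ndufa9 (0.49 ± 0.14) and Ndufb9 (0.40 ± 0.12). After quantile normalization Ndufc1, Ndufaf4, Ndufa12 and Ndufa9 were still called, and Ndufs8, Ndufa8 and Ndufb9, at 0.29, 0.39 and 0.13, were not. The remaining 6 assembly factors had differences between -0.23 (Ndufaf7) and 0.20 (Ndufaf3) and none was called.

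Complexes II, III and IV held 2 of the 13 calls. None of the 4 genes of complex II was called, with differences of 0.06 for the flavoprotein Sdha, 0.23 for the iron-sulfur subunit Sdhb, 0.29 for Sdhd and 0.33 for Sdhc. In complex III, Uqcrb, a small subunit at the ubiquinone site, was higher by 0.38 ± 0.11, and the core protein Uqcrc2 by 0.77 ± 0.23 (limma adjusted p = 0.0215 and 0.0308). Uqcrc2 read 12.85 to 13.32 at 8am and 8pm, but 4am a lay as high and 4am b reached 14.35, against 11.90 to 12.43 in the other 10 arrays, and a further probe set of this gene gave a difference of 0.21. After quantile normalization Uqcrb differed by 0.05 and Uqcrc2 by 0.08 (limma adjusted p = 0.6426 and 0.6245), so that neither was called. None of the 17 genes of complex IV was called: the differences ran between -0.63 and 0.55, and their median, 0.21 here, was -0.10 after quantile normalization.

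**Figure D3:**
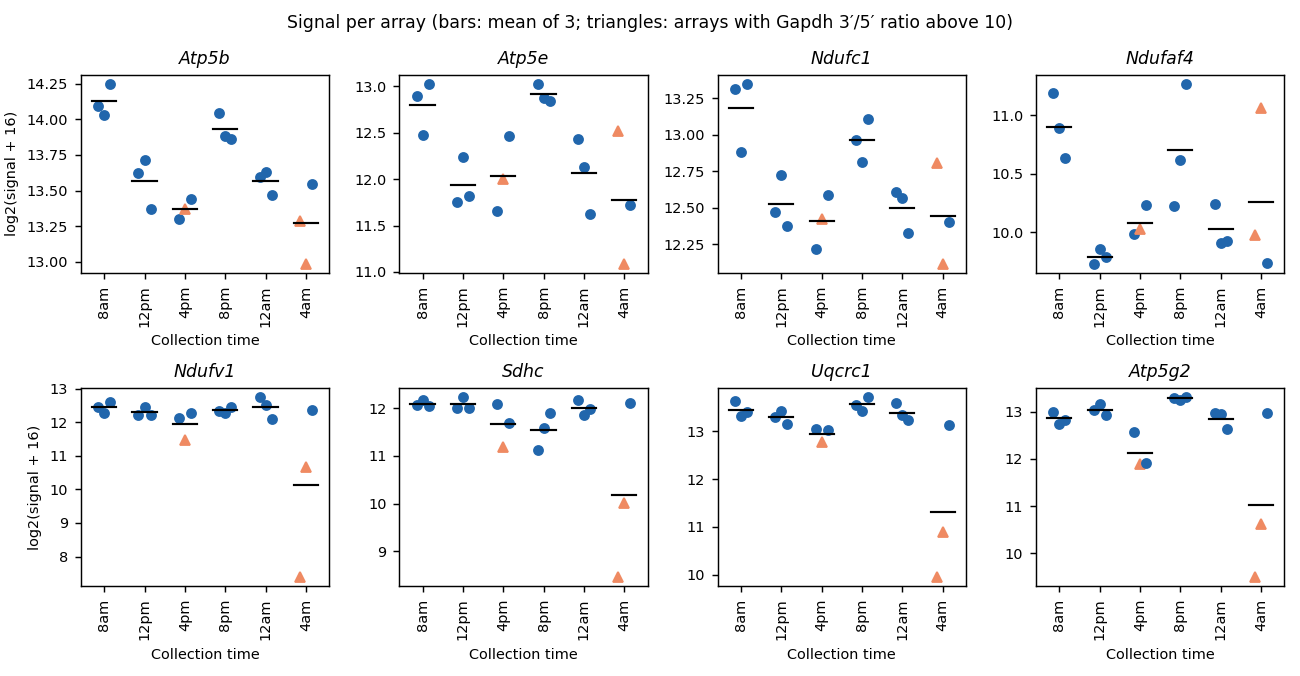
Each panel shows 1 gene, with log2(signal + 16) of the 18 arrays by collection time, a bar at the mean of 3, and triangles for the arrays with a Gapdh ratio above 10. In the upper panels (Atp5b, Atp5e, Ndufc1 and Ndufaf4) the means of 8am and 8pm are the highest; in the lower ones (Ndufv1, Sdhc, Uqcrc1 and Atp5g2) 2 triangles at 4am lie far below the rest.

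None of the arrays of high Gapdh ratio was taken at 8am or 8pm. Without those 4 arrays 35 of 87 members were called, 33 higher and 2 lower, against 30.1% of all genes, and the 13 named above were among them. Complex V then had 9 called and 17 of 17 differences positive, the accessory subunits of complex I had 13 of 28 called, and complex III had 3 of 8. Complex IV had 8 of 17 called, 6 higher and 2 lower, and the higher ones included Cox5a (0.40 ± 0.09) and Cox5b (0.54 ± 0.12). The lower ones included Cox4i2, which passed the filter only through the other times, so its call is not an independent result. Uqcrc2 differed by 1.11 ± 0.11, Atp5e by 1.01 ± 0.14 and Ndufaf4 by 0.92 ± 0.16 in this fit. With all others kept, the count was 4 without 8am a, 8am c, 8pm a or 8pm c, 6 without 12pm c, 8 without 12am c and 25 without 4am b or 4am c.

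The level of the whole set also differed between arrays of the same time. The median deviation of the 87 members from their own means was 0.32, -0.03 and 0.24 in 8am a, b and c, and 0.12, 0.03 and 0.22 in 8pm a, b and c. The 12pm arrays had -0.09, 0.07 and -0.15, the 4pm arrays -0.22, -0.06 and -0.04, the 12am arrays 0.14, 0.03 and -0.20, and the 4am arrays 0.19, -0.29 and -0.14. Thus 8am b lay among the arrays of the other times, and 12am a and 4am a lay above 8pm a and 8pm b.

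**Figure D4:**
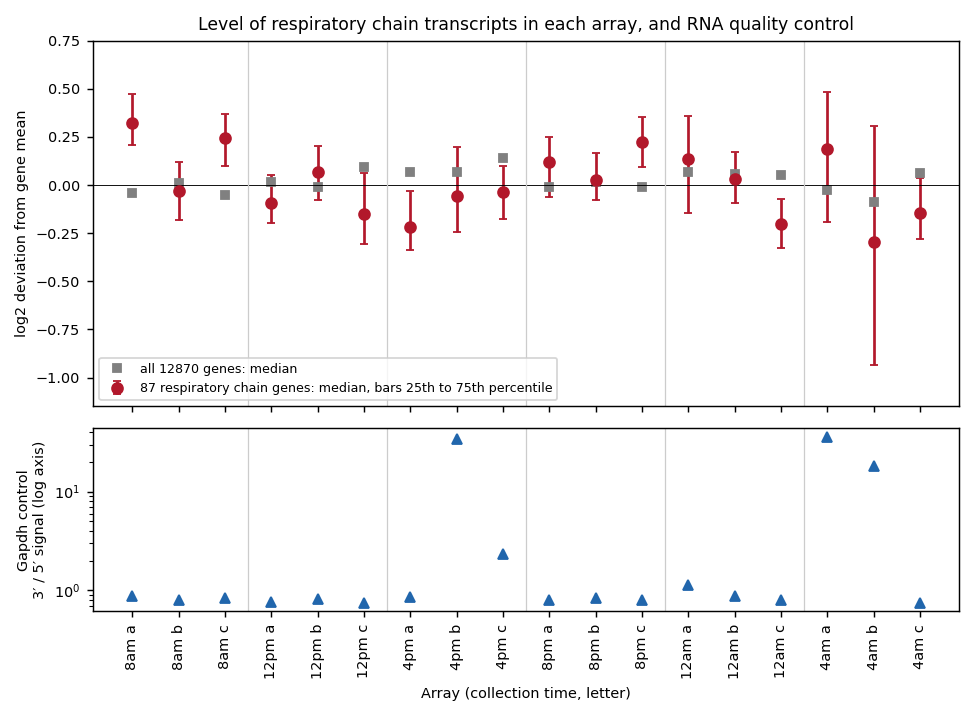
The upper panel gives, for each of the 18 arrays in order of time, the median and the quartiles of the members' deviations from their own means on the log2 scale, with the median of all 12870 genes as grey squares. The lower panel gives the Gapdh ratio on a log axis, where 4pm b, 4am a and 4am b stand above 10.

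Markers of the epithelium, of goblet cells, the mucus-secreting cells, and of smooth muscle mostly had the same direction as the members. Of the 8 epithelial markers 8 had a positive difference for 8am and 8pm, 3 passed the limma test (Epcam, Krt8 and Car1), and the median was 0.37. Their summed signal ran between 111400 and 130300 at 8am and 8pm (median 118300), against 81020 to 139100 at the other times (median 94840). The 6 goblet markers had a median of 0.39 with 3 called (Tff3, Clca1 and Zg16), and summed to 97500 to 129700 against 68360 to 111500. After quantile normalization the epithelial and goblet medians shrank, to 0.03 and 0.06, as that of the members did. Of the 7 smooth muscle markers 6 had a positive difference too, with a median of 0.35, and none was called. Markers called lower were Pdgfrb of pericytes (-0.79), S100b of glia (-0.72), Krt14 of squamous epithelium (-0.86) and Elovl3 of brown adipocytes (-0.68). Krt14 and Elovl3 had medians of 6.83 and 7.02 at 8am and 8pm, below the filter limit, against 7.49 and 7.42 elsewhere. Krt14 and Elovl3 thus passed the filter only through the other times, so their calls are not independent results. In this contrast 5.80% of all genes were called higher and 10.7% lower. The part of cell makeup in the members' difference was not tested, and in tissue RNA fewer cells of a type and less RNA per cell cannot be told apart.

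A shared level of 12pm and 12am was seen in few members. Against the other 4 times, 4 of 87 were called in limma (4.60%, against 13.8% of all genes, 7.15% higher and 6.70% lower): Cox6a2, the muscle form of a complex IV subunit, was higher by 0.56 ± 0.17, and Ndufa6, Ndufaf4 and Uqcrc2 were lower, by -0.39 ± 0.12, -0.58 ± 0.19 and -0.77 ± 0.23. Since the 12 arrays set against 12pm and 12am include those of 8am and 8pm, these are not independent of the differences above. Their adjusted p lay between 0.0365 and 0.0485, and the count was 0 without any of 8am a, 8am c, 12pm a, 12pm b, 4pm b, 8pm b or 12am c, 1 without 12pm c, 8pm a, 8pm c or 12am b, 2 without 12am a and 21 without 4am c. Centring each array on its median moved the median of all genes by -0.29 in this contrast and gave 19 members called, all lower. After quantile normalization none of these 4 kept its call. Cox6a2 differed by 0.34, Ndufa6 by -0.25, Ndufaf4 by -0.54 and Uqcrc2 by -0.02 (limma adjusted p = 0.136, 0.1951, 0.0605 and 0.8769). Cox7c (-1.10), Atp5pb (-0.25) and Ndufb8 (0.27) were called instead.

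At 4pm and 4am 14 members fell below the other times, and the arrays of high Gapdh ratio lie in this group. Against the other 4 times 15 of 87 were called in limma (17.2%, against 24.9% of all genes), 14 lower and Cox7c higher, where 11.6% of all genes were lower and 13.3% higher. Cox7c passed the filter only through the 4pm and 4am arrays. The lower ones were Ndufs7, Ndufs8 and Ndufv1 of the complex I core, Ndufb9 and Ndufc1, Sdhc, Uqcrc1, Cox8a and Ndufa4l2 of complex IV, and Atp5a1, Atp5b, Atp5g1, Atp5g2 and Atp5o of ATP synthase. Ndufa4l2 read 7.39, 6.18 and 7.04 at 4pm and 5.78, 6.34 and 6.86 at 4am, mostly below the filter limit. Ndufa4l2 thus passed the filter only through the other times, so its call is not an independent result. Uqcrc1 read 9.95 at the lowest, 12.90 in the median and 13.12 at the highest of the 6 arrays of 4pm and 4am, against 13.14, 13.41 and 13.72 in the 12 others, a log2 difference of -1.29 ± 0.29 (SE, limma adjusted p = 0.00935). Its groups did not overlap, which held in this direction for 0.218% of all genes. Atp5g2 differed by -1.43 ± 0.32, reading 9.50, 11.90 and 12.97 against 12.64, 12.98 and 13.32.

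Of the 6 arrays of 4pm and 4am, 4 were those with a high Gapdh ratio. Without the 3 arrays above 10 only Uqcrc2 was called (1 of 87, against 3.12% of all genes), without the 4 above 2 again Uqcrc2 (1.34%), and with the Gapdh ratio as a covariate 0 members (0.124%), and 0 of the 15 kept their call in any of these fits. Uqcrc1 then differed by -0.34 ± 0.13, Atp5g2 by -0.23 ± 0.12 and Ndufv1 by -0.13 ± 0.15 in the fit without 4 arrays, and Sdhc, at -1.0 ± 0.34 with all arrays, turned to 0.17 ± 0.16. The count was 8 without 4pm b alone and 26 without 4am c alone. After centring on array medians, which moved the median of all genes by 0.15, 9 members were called and the members' median was 0.00, against -0.14 with the deposited scaling.

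The low values at 4am differed from probe set to probe set. In 4am a and 4am b, 5 members lay more than 1 log2 unit below 4am c in both: Ndufv1 (7.39 and 10.66, against 12.38), Sdhc (8.46 and 10.01, against 12.10), Atp5g2 (9.50 and 10.62, against 12.97), Uqcrc1 (9.95 and 10.88, against 13.12) and Cox8a (12.09 and 10.83, against 13.24). They were 5.75% of the members, and 12.6% of all genes lay as low. For Ndufv1 the probe set used deviated by -4.98 from its mean in 4am a, while its other probe sets deviated by -1.20 and -0.63. Ndufb9 deviated by -1.12 with the probe set used and by 0.68 with another, and the 4pm and 4am difference of that other set was 0.19. Over the members called for 4pm and 4am, 12 of 15 other probe sets of the same genes had the same sign, and over those called for 8am and 8pm it was 12 of 13.

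Some related subunits that replace each other in different tissues had differences of opposite sign with the deposited scaling, but not after quantile normalization. Cox6a1, the widely used form, had time means between 13.72 and 14.20, with the highest at 8am, and Cox6a2, the form of heart and skeletal muscle, had its lowest mean at 8am (7.80 ± 0.27) and its highest at 12am (8.79 ± 0.39). Without the 4 arrays of high Gapdh ratio, Cox6a1 was higher at 8am and 8pm by 0.31 ± 0.09 and Cox6a2 lower by -0.47 ± 0.17, and Cox4i2, a form known from lung and low oxygen, was lower by -0.60 ± 0.21 (limma adjusted p = 0.0168, 0.0469 and 0.0390). With all arrays none of these 3 was called for 8am and 8pm, with adjusted p of 0.261, 0.113 and 0.311. The widely used forms Cox6b1 and Cox7a2 were also higher in the fit without 4 arrays, by 0.38 ± 0.11 and 0.34 ± 0.09, and so was Ndufa4, by 0.45 ± 0.13. With all arrays after quantile normalization, the direction of the widely used forms turned: Cox6a1 had -0.10, Cox6b1 -0.07, Cox7a2 -0.11 and Cox4i1 -0.11, the same sign as Cox6a2 (-0.30), Cox6b2 (-0.19) and Cox4i2 (-0.22). Cox4i1, Cox7a2l and Cox8c, with 0.16, -0.13 and 0.05 over all arrays, did not pass, and Cox6b2, a form known from testis, had -0.34 ± 0.32. Cox7a1, the muscle form of its family, read 11.91, 9.57 and 10.59 at 4am, and Cox6b2 read 7.45, 4.60 and 7.23. Markers of skeletal muscle were scarce, since 4 of 11 passed the filter, and their part in the level of Cox6a2 was not tested.

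**Figure D5:**
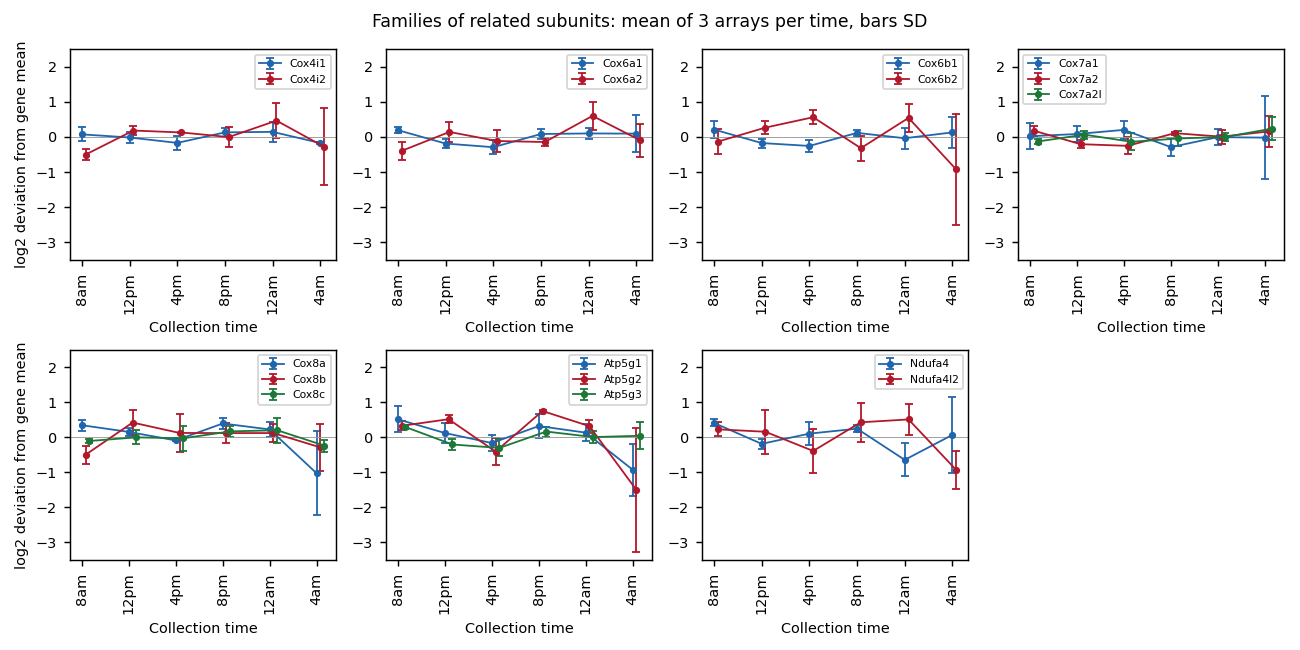
Each panel shows a family of related subunits, with the mean of 3 arrays per time as the log2 deviation from the gene's own mean and bars of 1 SD; the levels of different genes are not comparable here. Cox6a2 and Cox4i2 lie lowest at 8am, and the widest bars stand at 4am.

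Genes that act beside the complexes gave mixed results for 8am and 8pm. Of 14 regulators of mitochondrial biogenesis, Nrf1, a transcription factor for respiratory chain genes, was higher by 1.36 ± 0.29 (limma adjusted p = 0.005088), reading 9.76, 10.02 and 10.38 at the lowest, median and highest of the 8am and 8pm arrays, against 6.44, 8.90 and 9.65 elsewhere. Those groups did not overlap, which held in this direction for 1.30% of all genes. Tfb2m, a factor for transcription of mitochondrial DNA, was higher by 0.98 ± 0.21, and Gabpb1, a subunit of the GA-binding protein, lower by -0.60 ± 0.14 (limma adjusted p = 0.00566 and 0.00956). The other 11, Ppargc1a and Ppargc1b among them, did not pass, and the median of the list was 0.06. The 3 called are 21.4% of the list, against 16.4% of all genes.

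Of 13 electron carriers and chain genes whose symbols the rule left out, cytochrome c (Cycs) was higher by 0.41 ± 0.12 and Cyc1, the cytochrome of complex III, by 0.35 ± 0.11, and the list's median was 0.25. These 2 are 15.4% of the list, near the 16.4% of all genes. Of 34 further assembly factors, 5 were higher and 1 lower, which is 17.6% of the list and near the 16.4% of all genes. Atpaf2, which helps to build ATP synthase, had the largest of these differences with 1.86 ± 0.27 (limma adjusted p = 0.0003969), reading 7.31, 8.45 and 9.01 at 8am and 8pm against 5.48, 6.65 and 7.39 elsewhere. Its level elsewhere lay mostly below the filter limit of 7.10. Atpaf2 thus passed the filter only through the group where it was high, and its p-value is no support for the difference. Coa3, Uqcc2, Ecsit and Cox10 were higher by 0.98, 0.94, 0.72 and 0.52, and Sco2 was lower by -0.58. Of 12 genes of the citric acid cycle only Idh3a was called (8.33%), with 0.51 ± 0.16, and of 4 regulators of ATP synthase none was.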

How the data were processed

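RNA from distal colon of mice was hybridised to 18 Affymetrix MOE430 2.0 arrays. The deposited intensity of each probe set is on a linear scale, made by the authors with GCOS per the submitters' processing notes, which give no version, and the mean after trimming 2% at each end was 500 in each array. The number of arrays, 3 per time, limits the precision. The deposited values come without background or detection calls, so whether a dim probe set lay above background could not be judged. Of 45101 probe sets, 64 controls were used for quality only. Values were taken as log2(signal + 16), and probe sets were kept at or above the 40th percentile of mean log2 (7.10), which left 27022, of which 22387 had a single symbol. Each gene was represented by its brightest probe set, by mean log2, and 7 annotations that join a member with other symbols were not used. The tables gave a position on GRCm38.p6 for 90 of 90 members.

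The titles gave each sample its collection time. limma 3.58.1 in R 4.3.3 fitted 6 group means and a 24 h cosine over all 18 arrays, with empirical Bayes moderation and a trend. Adjusted p is Benjamini-Hochberg over all 12870 genes, two-sided, with a threshold of 0.05. The tests were tried on simulated data. The members, lists, tests and alternatives were chosen with earlier results of these data known. Members named were those called in a comparison, the 3 of lowest p between times in each complex and the families of related subunits, and up to 4 of lowest p in other lists, with some more that show a spread. Alternatives changed the added constant, the scaling, the filter, the probe set, the moderation, the arrays used and the model terms.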

Additional observations from a re-analysis of the deposited data

How the results depend on the processing

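Counts of members called over all genes were compared across settings. No member was called rhythmic over 24 h or between 8am and 8pm under any of them. Array quality weights gave 59 calls between the 6 times, 18 for light minus dark, 1 for 12pm minus 12am, 30 for 4pm minus 4am, 47 for 8am and 8pm, 30 for 12pm and 12am and 33 for 4pm and 4am, each of these sets of times against the other 4. Quantile normalization gave 5 between the 6 times and 7 for 8am and 8pm. Centring on array medians gave 19 for 12pm and 12am and 9 for 4pm and 4am. The Gapdh ratio as a covariate gave 0 for both of these. Without the 3 arrays of highest ratio there were 17 between the 6 times, 40 for 8am and 8pm and 1 for 4pm and 4am, and without 4 arrays 18, 35 and 1, with 2 for 12pm and 12am and 1 for 12pm minus 12am. Leaving out 1 array gave 1 to 32 between the 6 times, 0 to 4 for light minus dark, 0 to 25 for 4pm minus 4am, 4 to 25 for 8am and 8pm, 0 to 21 for 12pm and 12am and 8 to 26 for 4pm and 4am. Apart from the replicate block given below, the other counts stayed within 1.5 times the main count. A like count need not hold the same members: quantile normalization called other members for 12pm and 12am. Of all genes, array quality weights called 15.1% for light minus dark and 25.4% for 4pm minus 4am. For 8am and 8pm, quantile normalization called 14.0% of all genes and the fit without 4 arrays 30.1%. A count given without the share of all genes shows only how far it moves with the setting, and is no result about the members. The cause of these moves was not tested, beyond the arrays left out.

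Sdhc reversed for 4pm and 4am, to 0.074 with the covariate, 0.069 without 3 arrays and 0.17 without 4. Among single members, calls for 8am and 8pm were kept in 331 of the member and setting pairs and lost in 85, for 12pm and 12am in 62 and 66, and for 4pm and 4am in 361 and 114. With the letters a to c as a replicate block 5 members were called between the 6 times and 11 for 8am and 8pm. The letters did not pair the arrays: of 45 pairs of times with a shared letter 6 correlated above 0.1 in their deviations, the mean was -0.01 with a range of -0.49 to 0.30, and 4 of 18 arrays correlated best with their own letter.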

Other observations

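The mitochondrial ribosome, which translates the chain subunits encoded by mitochondrial DNA, was read from 76 genes whose symbols begin with Mrpl or Mrps. For 8am and 8pm against the other 4 times, 9 were higher and 3 lower in limma (adjusted p under the threshold), with a median log2 difference of 0.14. The 12 are 15.8% of the list, near the 16.4% of all genes. Mrpl12, which also binds the mitochondrial RNA polymerase, read 11.37 at the lowest, 11.81 in the median and 12.26 at the highest of the 8am and 8pm arrays, against 7.68, 10.79 and 11.23 elsewhere, a difference of 1.44 ± 0.28 (SE, limma adjusted p = 0.002864). Mrpl40 was higher by 0.78 ± 0.14 and Mrps30 lower by -0.59 ± 0.11 (limma adjusted p = 0.001792 and 0.002698). In Mrpl12 and Mrpl40 the 6 arrays of 8am and 8pm lay above the other 12, as they did in 1.30% of all genes. The list's median was also 0.14 after quantile normalization, with 9 higher and 3 lower again.

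Cox7c was the 1 member called higher at 4pm and 4am, by 1.43 ± 0.30 (limma adjusted p = 0.006997). Its only probe set of a single symbol was dim, with 8.63, 8.66 and 8.59 at 4pm and 8.48, 7.77 and 8.22 at 4am, against 5.40 to 8.36 at the other 4 times. The mean of those other times lay below the filter limit of 7.10. Cox7c thus passed the filter only through the group where it was high, and its p-value is no support for the difference. The fit that leaves out the 4 arrays of high Gapdh ratio gave a difference of 1.47 ± 0.50 and an adjusted p of 0.1357.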
